A study of Mus musculus with 31 samples.

Results

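Alternative 3' splice site events are splicing events in which an intron has a single 5' splice site but more than one possible 3' end, so that the downstream exon begins either at a proximal or at a distal acceptor. Of the 1922 splicing events counted by RASL-seq in cortex from mouse models of Huntington's disease (HD), 31 were annotated with this type and all 31 were taken. They lay in 31 genes, with 1 event per gene. The R6/2 mice had 31 of 1743 events of the type, the mice of the Q150 file set 30 of 1785 and those of the Q175 file set 31 of 1839, and the event that the Q150 files did not list was that of Atp6v0a1. The choice rested on the type alone and used no measured value, though earlier results of these data were known when it was made.

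RASL-seq anneals pairs of oligonucleotide probes to both sides of a known splice junction, ligates them and counts the ligated pairs by sequencing. Each event has a short count and a long count, read here as the junction to the distal acceptor, which leaves a segment of exon out, and the junction to the proximal acceptor, which keeps it in. This reading was inferred from the lengths of the products and is not stated in the labels or methods, and the acceptor behind each exclusion value rests on it. The groups were R6/2 HD (3 mice) and R6/2 WT (3 mice), Q150 HET (4 mice) and Q150 HOMO (4 mice) with 5 knock-in WT mice, and Q175 HET (4 mice) and Q175 HOMO (3 mice) with 5 other knock-in WT mice. The line of a knock-in mouse was taken from its glutamine numbers, since titles name Q150 and the genotype field names Q175 for mutants of both lines, and the methods give the numbers of homozygotes of the Q150 and Q175 lines the other way round, while another part of the study gives them as here. R6/2 mice carry a transgene with the first exon of mutant human HTT under the human HTT promoter and keep both of their own Htt alleles. The knock-in mice carry the expansion in their own Htt gene, with 150 or 175 glutamines on 1 allele (HET) or on both (HOMO), against 7 glutamines on both alleles of WT. Mice were 3 months old in the R6/2 line, 7 months in the Q150 line and 18 months in the Q175 line, so line, age and repeat length cannot be told apart. The strains named in the methods are B6CBA-Tg(HDexon1)62Gpb/3J, B6.129P2-Htttm2Detl/150J and B6J.129S1-Htttm1Mfc/190ChdiJ. No mouse was treated, and cortex of 1 hemisphere gave 1 library per mouse.

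The 3' end of an intron is defined by a branch point, a tract rich in pyrimidines and the terminal AG dinucleotide. SF1, the large and small subunits of U2AF and the SF3 complexes recognise these elements, and the second catalytic step of splicing then joins the exons at the chosen AG. Where competing acceptors lie close together, the choice between them adds or removes a short run of amino acids, or moves the reading frame. Such switches are common in brain transcripts, for example in channels, growth factors and transcription factors.

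The results below turn on 6 genes, and the acceptors that the annotation gives for them are shown. They were matched to the events by gene and length, not by probe sequence. Each line holds the last 20 bases of the intron and the first 3 bases of the exon, 5' to 3' on the strand of the gene, with the terminal AG of the intron in capitals.
Brd2 proximal: ttagaaatgttttcttctAGaca
Brd2 middle: atgagactctgcctgtgcAGctt
Brd2 distal: catgctgcctccttctgcAGcgg
Brd1 proximal: tttatttataattttttcAGgag
Brd1 distal: caaaacctttttgtctgtAGtcc
Taf1 proximal: ctttcttttccttgttgcAGtgt
Taf1 distal: cccttcctctttggcctcAGaga
Ccnl2 proximal: ctgtactctttcaatcaaAGggt
Ccnl2 distal: cttcctggttttggtttcAGgaa
Kif1b proximal: cttttctttctgtctcccAGatc
Kif1b distal: ccctggcaatttttccacAGcat
Pdlim5 proximal: tttatttttatttcacatAGggt
Pdlim5 distal: cagttaatgtcccacggcAGccc
The sequences are from GRCm38 and come from annotation, since no probe sequence was used here. The Brd2 sites lie on the minus strand at chr17:34114648-34114670, chr17:34114501-34114523 and chr17:34114476-34114498, and those of Brd1 on the minus strand at chr15:88701268-88701290 and chr15:88700875-88700897. Those of Taf1 lie on the plus strand at chrX:101540740-101540762 and chrX:101540803-101540825, and those of Ccnl2 on the plus strand at chr4:155818519-155818541 and chr4:155820309-155820331. The Kif1b sites are on the minus strand at chr4:149258079-149258101 and chr4:149258001-149258023, and the Pdlim5 sites on the minus strand at chr3:142312539-142312561 and chr3:142312212-142312234.

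The positions in the files are not those of this build. Only 261 of 1872 events with a gene in the GRCm38 table lay inside that gene's span, and for the alternative 3' splice site events 3 of 31, although the labels name mm10. Members were therefore matched by gene and by the length from the donor to the far end of the downstream exon, with no coordinate carried over. All 31 matched a single annotated donor and exon end, 25 of them with exactly 2 acceptors, 5 with 3 acceptors and 1 (Mink1) with only 1. For Brd2, which of the 3 sites the probes read was therefore not settled.

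In the 25 events with 2 acceptors the sites lay from 18 bases (Cdc27 and Jkamp) to 1790 bases (Ccnl2) apart, with a median of 75 bases. The distance was a multiple of 3 in 16 of them, among them Taf1 (63 bases), Kif1b (78 bases), Pdlim5 (327 bases) and Brd1 (393 bases), and not in 9, among them Stat3 (50 bases), Vegfb (101 bases) and Mdm4 (29 bases). The Brd1, Taf1, Kif1b and Pdlim5 acceptors all start coding exon sequence, while the proximal Ccnl2 acceptor is annotated only in noncoding transcripts and the distal one in coding transcripts. The tract of the proximal site held more C and T over its 20 intron bases than that of the distal site in 16 events and fewer in 6, with medians of 70% and 60%, and a median of 70% over 29169 annotated acceptors of the genes on the probe set. All 66 acceptors matched to members ended in AG. The letters TGTGTG, a motif read by the protein of Tardbp, stood on the sense strand within 100 intron and 50 exon bases of 8 of those 66 sites (12.1%), in 6 of the 31 events, among them Bmp1, Mdm4, Pgs1, Stat3 and Zmynd8. Windows of that length around all annotated acceptors held it in 9.91% on the sense strand and in 4.8% on the antisense strand.

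Total counts per mouse ran from 2171709 to 5256516, and the summed short and long counts of a member ran from 52 to 43152 per mouse. Of the marker lists for cell types of the cortex, 4 of 12 neuronal and 4 of 9 oligodendrocyte genes had events in at least 1 set, as did 1 of 5 endothelial genes (Pecam1), and none of 7 astrocyte, 7 microglia or 8 striatal genes. Summed counts of the neuronal genes Gria2, Grin1, Map2 and Syt1 ran from 28049 to 33022 CPM, the usual scaling of counts to the total of a library, in R6/2 HD against 35541 to 39387 in R6/2 WT, and from 31948 to 36247 in Q150 HOMO against 36312 to 43480 in WT. For Q175 HOMO they ran from 33899 to 38963 against 32631 to 40581. The oligodendrocyte sums rested on Mag and Mbp in the R6/2 set, with Mobp added in the Q175 set and Mobp and Plekhb1 in the Q150 set, so their levels are not comparable between sets. They overlapped in all of these pairs of groups, with 9001 to 13066 against 10879 to 13272 in R6/2, 11809 to 20892 against 11689 to 19262 in Q150 and 6714 to 11418 against 8835 to 11001 in Q175, as did Pecam1 in each. The part of cell composition in the results was not tested, and fewer cells of a type and less RNA per cell cannot be told apart in these bulk samples.

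Exclusion of an event is the percentage of its summed counts that came from the short junction. It is on the scale of the assay, where probe pairs can differ in efficiency, and is not a share of molecules. In WT mice the members spread over the whole range. Mean exclusion in R6/2 WT was under 20% for 14 events, between 20% and 80% for 10 and over 80% for 7, with a median of 38.4%. Mink1, a kinase of the Ste20 family, was lowest at 0.426% ± 0.0698 (SD, n = 3) and Atp6v0a1, a subunit of the proton pump of vesicles, highest at 99.97% ± 0.0101 (SD, n = 3). Mdm4 did not have counts of its own, since both its counts equalled in every mouse the long counts of cassette events listed under its older name Mdmx.

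Comparisons were made within a file set, each mutant group against the WT mice there, so that HET and HOMO share their WT mice. Changes are log2 changes of the short-to-long ratio, tested by limma over all events of the set with Benjamini-Hochberg adjustment, and an event passed where the adjusted p was under 0.05. In R6/2 HD, 5 of 31 events passed, where 28.6% of all 1743 events did. The short form rose for Ccnl2, Kif1b and Pdlim5, 3 of 31 events against 21.1% of all events, and fell for Brd2 and Taf1, 2 of 31 against 7.46%. The median change of the members was -0.03, that of all events 0.18. In Q150 HOMO, 3 of 30 events passed, against 23.9% of all 1785. Brd1 and Taf1 rose, 2 of 30 against 19.8%, and Brd2 fell, 1 of 30 against 4.09%, with a median change of 0.02 for the members and 0.19 for all events. Q175 HOMO had 2 of 31 past the threshold, against 7.07% of all 1839. Ccnl2 and Kif1b rose, 2 of 31 against 5.6%, none fell where 1.47% of all events did, and the medians were 0.04 and 0.07. None passed in Q150 HET, where 3.47% of all events did, or in Q175 HET, where 0.598% did. In each of those 2 comparisons 2 members had an unadjusted limma p under 0.05, against 18.1% of all events in Q150 HET and 10.8% in Q175 HET, and a quasi-binomial model also called none. Of the 31 events, 6 passed in at least 1 comparison and 25 in none. The matching share of all events was not counted, so these 2 numbers say nothing on the members as a class.

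Among the genes of transcription and chromatin, Brd2 gave the lowest adjusted p-values. BRD2 is a BET protein whose bromodomains bind acetylated histones. Nearly all counts came from the short junction, and R6/2 HD mice had more of the long one than their WT mice. Exclusion was 97.4%, 97.7% and 97.8% in the R6/2 WT mice and 94.9%, 95.5% and 95.3% in the R6/2 HD mice. All HD mice lay below all WT mice. The log2 ratio fell by 1.05 (SE 0.115, limma adjusted p = 3.50e-05). The long junction had 225 ± 18.2 CPM in HD against 96.5 ± 9.36 in WT (SD, n = 3 each), while the short junction had 4508 ± 309 against 4010 ± 110.

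In the Q150 set mean Brd2 exclusion was 97.6% in WT, 96.9% in HET and 96.2% in HOMO. WT mice had 97.5%, 97.6%, 97.6%, 97.5% and 97.7% exclusion, HET mice 97.3%, 97.0%, 97.0% and 96.3%, and HOMO mice 95.6%, 96.5%, 96.0% and 96.6%. All mutant mice lay below all WT mice, while 1 HET mouse lay within the range of the HOMO mice. The log2 ratio fell by 0.68 in HOMO (SE 0.115, limma adjusted p = 0.000183). In HET the change was -0.38 (SE 0.115, limma adjusted p = 0.0692). Over the alternatives its adjusted p ran from 0.0181 to 0.179, and it passed where each mouse was centred on the median of its events or where a term for the mouse number series was added. Within the series of low mouse numbers HOMO was at -0.72 and in the high series at -0.64. Long counts had means of 103, 128 and 173 CPM in WT, HET and HOMO. In the Q175 set exclusion ran from 97.2% to 97.8% in WT, 97.4% to 97.7% in HET and 97.2% to 97.6% in HOMO, with a HOMO change of -0.07 (SE 0.109, limma adjusted p = 0.791). The groups overlapped there.

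Taf1, which encodes the largest subunit of TFIID, fell in R6/2 HD and rose in Q150 HOMO. R6/2 WT mice had 41.5%, 36.9% and 36.7% exclusion and R6/2 HD mice 32.2%, 30.6% and 27.3%. Every HD mouse lay below every WT mouse, and the log2 ratio fell by 0.54 (SE 0.155, limma adjusted p = 0.0204), a call that was lost without a variance trend, without R6/2 WT replicate 3 or without HD replicate 869. Q150 WT mice had 29.4%, 33.1%, 32.7%, 34.2% and 33.3%, HET mice 31.6%, 37.5%, 31.3% and 37.2%, and HOMO mice 36.0%, 36.4%, 41.7% and 41.5%. All HOMO mice lay above all WT mice. The log2 ratio rose by 0.40 (SE 0.138, limma adjusted p = 0.0387), a call that was lost with mice centred, without a variance trend, and without WT replicate 1 or 3 or HOMO replicate 3 or 4. Q175 HOMO mice had 30.0%, 29.0% and 30.2% against 30.4% to 40.0% in WT, below every WT mouse, with a change of -0.23 (SE 0.135) that did not pass (limma adjusted p = 0.352). The 2 WT groups of the knock-in sets, at means of 32.5% and 33.2%, were below R6/2 WT at 38.4%.

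Both Taf1 junctions had higher mean counts in these mutant mice. In R6/2 HD the long junction had 203 ± 25.8 CPM against 106 ± 9.95 in WT (SD, n = 3 each), and the short one 87.1 ± 14 against 65.8 ± 4.66. In Q150 HOMO the short junction had 101 ± 3.84 (SD, n = 4) against 69.9 ± 7.97 (SD, n = 5) and the long one 159 ± 17.5 against 144 ± 8.50. The difference in means was larger for the long junction in R6/2 and for the short junction in Q150.

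Brd1, a bromodomain scaffold of histone acetyltransferase complexes, had similar counts from both junctions. Exclusion was 50.5%, 49.6%, 45.0%, 50.5% and 49.0% in Q150 WT, 49.6%, 58.0%, 50.1% and 55.2% in HET and 55.9%, 55.7%, 61.8% and 51.6% in HOMO. HOMO mice lay above all WT mice and HET mice overlapped both. The log2 ratio rose by 0.42 in HOMO (SE 0.143, limma adjusted p = 0.0345), a call that was lost with mice centred, without a variance trend, and without WT replicate 3 or HOMO replicate 1, 2 or 3. Within the series of mouse numbers HOMO was at 0.43 and 0.41. Values in the same direction that did not pass came from R6/2 HD, 58.2% ± 3.48 against 52.4% ± 2.73 (SD, n = 3 each, change 0.34, limma adjusted p = 0.120), and from Q175 HOMO, 54.9% ± 2.86 (SD, n = 3) against 49.4% ± 2.26 (SD, n = 5, change 0.32, limma adjusted p = 0.144). Q175 HET mice had 47.6% ± 4.01 (SD, n = 4).

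The other 4 events of this class did not pass in any comparison. STAT3 is a transcription factor activated by cytokines, and its alpha and beta forms differ by such an acceptor choice. Exclusion of Stat3 had group means from 54.0% to 61.9%, with SDs of up to 12.1 points on 63 to 187 counts per mouse. Zmynd8, a reader of histone marks, ranged from 9.30% to 12% in its group means, Zmiz2, a coactivator related to PIAS proteins, from 62.2% to 69.4%, and Narg2, a subunit of the little elongation complex now named Ice2, from 41.6% to 45.5%.

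Among the genes of RNA processing Ccnl2 passed in 2 models. Cyclin L2 is a nuclear speckle protein that pairs with cyclin-dependent kinases and affects splicing. The short junction was the rare one, with 12, 14 and 22 counts in the R6/2 WT mice and 48, 32 and 50 in the HD mice. By the reading used here, most counts thus came from the acceptor annotated only in noncoding transcripts, and the rare junction was that to the coding acceptor. Whether the reading holds for this event, or probe efficiency plays a part, was not tested. Exclusion was 1.36%, 1.64% and 1.44% in WT and 4.36%, 2.94% and 3.10% in HD. For the WT mouse with 12 short counts of 881 the 95% Wilson interval ran from 0.781% to 2.37%. All HD mice were above all WT mice, and the log2 ratio rose by 1.21 (SE 0.285, limma adjusted p = 0.00720). The short junction had CPM values of 5.62 ± 1.26 and 11.2 ± 2.95 in WT and HD, while the long junction had 371 ± 63.4 and 311 ± 46.8 (SD, n = 3 each).

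In the Q175 set Ccnl2 exclusion was 1.75%, 1.31%, 2.75%, 1.71% and 3.42% in WT, 2.26%, 3.74%, 2.71% and 3.27% in HET and 3.38%, 4.55% and 4.07% in HOMO. HOMO overlapped WT by 1 mouse of each group. The HOMO ratio rose by 0.96 (SE 0.264, limma adjusted p = 0.0172), a call that was lost without a variance trend, with a term for the mouse number series (change 0.73 within the high series), and without WT replicate 7 or 9 or HOMO replicate 2 or 3. The HET change was 0.52 (SE 0.242, limma adjusted p = 0.405). In the Q150 set mean exclusion was 1.93% ± 0.730 in WT (SD, n = 5), 2.28% ± 0.624 in HET and 2.67% ± 0.841 in HOMO (SD, n = 4 each), with overlap and no call (HOMO change 0.51, limma adjusted p = 0.245).

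Tial1, a relative of the stress granule protein TIA1, was close to the threshold in R6/2 HD, with 95.5% ± 0.444 exclusion against 96.8% ± 0.456 (SD, n = 3 each), a change of -0.51 and a limma adjusted p = 0.0550. It passed with each mouse centred and without WT replicate 3. In the knock-in sets its group means lay between 96.2% and 96.6%. Cdk13, a kinase of the RNA polymerase II tail, had group means from 77.1% to 84.4%, and Scaf4, which binds that tail, from 17.2% to 21.2%. Neither passed in any of the 5 comparisons.

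The kinases, phosphatase subunits, ubiquitin and signalling genes had no call with the settings above. HIPK2 is a nuclear kinase and OGT the enzyme that adds O-GlcNAc to proteins. Hipk2 group means ran from 89.3% to 92.7% and those of Ogt from 67.8% to 71.2%. Ogt had 4739 to 15327 counts per mouse and SDs of at most 1.43 points. Its one call under an alternative came in Q150 HOMO with mice centred (adjusted p = 0.00683, and up to 0.319 under the others), where 68.8% ± 1.43 stood against 71.2% ± 0.713 in WT (SD, n = 4 and 5). Cdc27, a subunit of the anaphase-promoting complex whose sites lie 18 bases apart, had group means from 97.2% to 97.8%. Mink1 stayed between 0.402% and 0.576%.

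Ppp2r2d, a regulatory subunit of protein phosphatase 2A, had group means from 39.0% to 50.5% and Jkamp, a membrane protein that associates with JNK, from 6.60% to 9.88%. For Rnf216, a ubiquitin ligase, they ran from 9.91% to 13.5%, and for Pcnp, a nuclear protein with PEST sequences, from 6.48% to 9.08%. Mdm4, an inhibitor of the p53 protein, had 14.1% ± 1.30 in Q175 HOMO (SD, n = 3) against 20.6% ± 4.64 in WT (SD, n = 5). All 3 HOMO mice were below all WT mice, yet the change of -0.64 did not pass (limma adjusted p = 0.107).

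Of the motor, transport and metabolic genes, Kif1b passed. Its kinesin carries synaptic vesicle precursors and mitochondria along axons. Exclusion was 10.9%, 10.6% and 12.4% in R6/2 WT and 19.6%, 13.9% and 13.2% in HD. The groups did not overlap, with HD replicate 860 far above the other HD mice. The log2 ratio rose by 0.51 (SE 0.175, limma adjusted p = 0.0439), and 7 of 12 alternatives lost the call, among them the fits without HD replicate 860 and without each WT mouse in turn. In Q175 HOMO the values were 16.1%, 16.8% and 16.5%, against 13.5%, 11.9%, 11.8%, 12.7% and 12.7% in WT and 14.9%, 11.4%, 14.1% and 13.5% in HET. HOMO mice lay above all other mice of the set. The ratio rose by 0.46 (SE 0.114, limma adjusted p = 0.00806), and the call held without any one mouse but not without a variance trend or with a term for the mouse number series (adjusted p at most 0.0703), with a change of 0.44 among the mice of the high series. The short junction had 107 ± 9.85 CPM in HOMO (SD, n = 3) and 79.4 ± 2.73 in WT (SD, n = 5), the long one 543 ± 61.9 and 555 ± 25.0. In Q150 HOMO exclusion was 14.2% ± 1.97 (SD, n = 4) against 12.8% ± 1.01 (SD, n = 5), with overlap (change 0.17, limma adjusted p = 0.365).

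Acsl4, which activates arachidonic acid, had group means from 9.44% to 13.4%, Pgs1, an enzyme of cardiolipin synthesis, from 74.0% to 83.1%, and Exd2, an exonuclease, from 13.1% to 19.9%. Atp6v0a1 had between 99.96% and 99.97% in its group means. None of these 4 passed.

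The events of secreted, adhesion and cytoskeletal proteins held the largest log2 change of any member against WT, that of Pdlim5 in R6/2. Pdlim5 encodes a PDZ and LIM domain adaptor of the actin cytoskeleton that is present in neurons and muscle. Exclusion was 14.5%, 18% and 12.5% in R6/2 WT and 24.1%, 34.3% and 34.2% in HD. All HD mice were above all WT mice. The log2 ratio rose by 1.34 (SE 0.220, limma adjusted p = 0.000709). The short junction had CPM values of 40.0 ± 7.68 in WT and 78.5 ± 11.9 in HD, and long counts 228 ± 33.6 and 177 ± 23.4 (SD, n = 3 each). The mean of the short junction was higher and that of the long junction lower in HD, while their sum was 268 ± 36.9 in WT and 255 ± 11.8 in HD.

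In the knock-in mice Pdlim5 did not pass. Q150 WT mice had 13.8%, 13.7%, 19.9%, 26% and 21.8%, HET mice 19.1%, 15.5%, 14.9% and 20.1%, and HOMO mice 15.9%, 20.7%, 26.5% and 23.2%. The groups overlapped. Q175 means were 18.2% ± 2.23 in WT (SD, n = 5), 18.5% ± 1.23 in HET (SD, n = 4) and 18.5% ± 0.740 in HOMO (SD, n = 3).

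Fn1, the matrix protein fibronectin with its variable region, had group means from 3.81% to 5.14%, Neo1, the receptor neogenin, from 68.7% to 75.2%, Bmp1, the protease that trims procollagen, from 85.5% to 90.2%, and Vegfb, a growth factor whose 2 isoforms come from this acceptor choice, from 34.3% to 46.6%. These 4 passed in none of the comparisons with WT.

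The mouse numbers of the Q150 set fell into a low series (8 mice) and a high series (5 mice), and every group held mice of both. In a fit that also held the group, limma called 4 of 30 members for the series, against 15.2% of all events. Vegfb had the lowest p of all 1785 events. Its exclusion was 34.3% ± 1.73 in the low series (SD, n = 8, from 31.9% to 37.4%) and 49.0% ± 1.94 in the high one (SD, n = 5, from 45.8% to 50.6%), with no overlap and a log2 difference of 0.86 (SE 0.0748, adjusted p = 1.12e-09). Pdlim5 was higher in the high series, at 23.5% ± 2.73 against 16.7% ± 2.78 (log2 difference 0.59, adjusted p = 0.00188). Zmynd8, at 8.24% ± 0.750 against 10.8% ± 0.688 (difference -0.42, adjusted p = 0.00579), and Neo1, at 67.1% ± 4.32 against 74.1% ± 5.99 (difference -0.57, adjusted p = 0.0315), were lower there. R6/2 mice of both groups had Vegfb exclusion from 32.8% to 36.4% and Q175 mice from 38.5% to 49.5%. What the number series stand for is not stated in the labels.

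HET and HOMO mice were also fitted together, with the change per mutant allele. In the Q150 set 3 of 30 members passed, against 23.4% of all events, with a log2 change per allele of -0.34 for Brd2 (SE 0.0566, limma adjusted p = 0.000119), 0.21 for Brd1 (SE 0.0700, adjusted p = 0.0285) and 0.20 for Taf1 (SE 0.0680, adjusted p = 0.0370). In the Q175 set 2 of 31 passed, against 7.34%. They were Ccnl2 at 0.49 per allele (SE 0.129, adjusted p = 0.0159) and Kif1b at 0.22 (SE 0.0575, adjusted p = 0.0141). In this set all 4 HET mice had low and all 3 HOMO mice high mouse numbers, while 3 WT mice were in the low and 2 in the high series. HET and HOMO mice thus shared no series, and their difference can be separated from it only through the WT mice. That takes the effect of the series as equal in all groups. With a term for the series, an alternative added after seeing the data, the slopes were 0.45 for Ccnl2 (limma adjusted p = 0.0474) and 0.20 for Kif1b (adjusted p = 0.0469), while the HOMO changes of both events lost their calls. The Q150 count was 1 without WT replicate 3 or without HOMO replicate 3. Without WT replicate 7 or HOMO replicate 1 or 3 the Q175 count was 1, and without HOMO replicate 2 it was 0.

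Whether the changes differed between the models was tested by an interaction in limma over the events listed in both sets. Between R6/2 HD and Q150 HOMO, 1 of 30 members differed, against 6.96% of all events. It was Taf1, whose change in R6/2 was 0.94 lower on the log2 scale (difference -0.94, SE 0.210, adjusted p = 0.00611). Between R6/2 HD and Q175 HOMO 2 of 31 differed, against 13% of all events, with Brd2 at -0.99 (SE 0.155, adjusted p = 4.62e-05) and Pdlim5 at 1.30 (SE 0.245, adjusted p = 0.000373). Between Q150 HOMO and Q175 HOMO 1 of 30 differed, against 3.41%. That was Brd2 at -0.61 (SE 0.154, adjusted p = 0.0261), a call lost without Q150 HOMO replicate 1, Q175 WT replicate 9 or Q175 HOMO replicate 1 or 3. The Taf1 difference of 0.63 between these models did not pass (SE 0.191, adjusted p = 0.0621), nor did that of Pdlim5 between R6/2 HD and Q150 HOMO (1.10, SE 0.352, adjusted p = 0.0607). For Ccnl2 and Kif1b no pair of models differed past the threshold, with differences from -0.46 to 0.70 and from -0.29 to 0.34.

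The summed counts of both junctions were compared as log2 CPM of the mouse's file. Where the probe pairs of an event differ in efficiency this sum moves with the ratio as well as with the amount of transcript, and for Mdm4 it adds counts listed for other events. In R6/2 HD, 11 of 31 members changed, against 44.4% of all events by limma. Bmp1 fell most, from 146 ± 6.94 to 67.7 ± 1.94 CPM (SD, n = 3 each, log2 change -1.11, adjusted p = 4.53e-06), without a call in its ratio. Zmynd8 fell from 507 ± 66.9 to 299 ± 24.5 (-0.76, adjusted p = 6.88e-05), and Mink1 and Zmiz2 fell by 0.25 and 0.40. Taf1 rose from 172 ± 11.4 to 290 ± 36.3 (0.75, adjusted p = 9.88e-05). Neo1 (0.52), Ogt (0.41), Brd2 (0.20), Atp6v0a1 (0.20) and Cdc27 (0.20) were among the others that rose.

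In Q150 HOMO 2 of 30 changed, against 14.1% of all events, with Zmynd8 lower (from 630 ± 65.1 to 449 ± 43.8 CPM, log2 change -0.49, limma adjusted p = 0.00387) and Pcnp higher (0.33, adjusted p = 0.0462). In Q175 HOMO 4 of 31 changed, against 12.8%. Bmp1 fell from 126 ± 7.49 to 93.4 ± 10.7 (-0.43, adjusted p = 0.0103) and Taf1 rose from 188 ± 10.3 to 252 ± 29.4 (0.41, adjusted p = 0.00526), as did Acsl4 (0.26). None changed in Q150 HET, where 0.84% of all events did, or in Q175 HET, where 0.109% did, with 2 members at an unadjusted limma p under 0.05 in each, against 16.6% and 13.9% of all events. Of the 6 events with a called ratio, Ccnl2, Kif1b, Pdlim5 and Brd1 had no call in summed counts in any comparison.

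The probe set had 13 other events in 8 of the 31 genes. In R6/2 HD a cassette event of Neo1 fell (-0.58, limma adjusted p = 0.00608), while the acceptor choice of Neo1 did not pass. In Q175 HET a cassette event of Fn1 fell (-1.66, adjusted p = 0.00316). The cassette event of Kif1b was at -0.66 in Q175 HOMO (adjusted p = 0.0505).

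Factors that read the 3' end of introns were measured through their own events. Of 35 genes on a list of such factors 9 had events on the probe set, all cassette or mutually exclusive exons, and the 2 events of U2af1 carried the same ratios. The list was chosen with earlier results of these data known, and some genes count more than once. Its counts beside the shares of all events are therefore not an independent test. In R6/2 HD 7 of 12 events, from 5 genes, rose in their short form, against 21.1% of all events, and none fell. The median change of the 12 was 0.44 against 0.18 for all events. Those that rose belonged to Rbm5 (1.24 and 1.51), Ptbp2 (1.19), Rbm10 (0.81), Hnrnpa1 (0.72) and U2af1 (0.44, both events). RBM5 and RBM10 are RNA-binding proteins of the early spliceosome, PTBP2 and hnRNP A1 often repress splice sites, and U2AF1 contacts the terminal AG. In Q150 HOMO 5 of 13 rose, against 19.8% of all events. They came from 3 genes, with 3 events of Rbm5 from 0.91 to 2.90, Ptbp2 at 1.18 and Hnrnpa1 at 0.67. In Q150 HET 5 of 13 rose, from the same 3 genes, against 3.03% of all events. In Q175 HOMO 1 of 12 rose (Rbm10, 0.40), against 5.6% of all events, and in Q175 HET none of 12 passed, where 0.598% of all events did. Events of Puf60, Sf1, Ptbp1 and Rbm39 passed in none of the 5 comparisons.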

How the data were processed

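Total RNA of mouse cortex went into 1 RASL-seq library per mouse (31 mice), for which the authors used annealing of probe pairs, selection on oligo(dT), ligation and PCR. Per the file headers the deposited tables hold raw short and long junction counts, not normalized and written with comma separators, and their unit was therefore entered as other than counts. Negative binomial models of the counts were not run for that reason. The labels name mm10; the aligner is not given in the sources used here. No molecular identifiers are stated, so intervals cover counting error only.

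Groups came from titles (R6/2) and the genotype field (knock-in). Titles call all knock-in mice Q150, so the line was taken from the glutamine numbers. The 10 knock-in WT mice were split by the event list of their file. Members and gene lists were chosen with earlier results of these data known. All alternative 3' splice site events were counted and all but 1, which is not reported here, were named, with values mouse by mouse for those past the threshold in a comparison with WT.

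Per event, log2((short + 0.5) / (long + 0.5)) was tested with limma 3.58.1 (R 4.3.3), 1 mean per group and every mouse of the set in the fit, with a variance trend on the counts and a minimum mean of 10 counts, which removed no event. On simulated counts for all events with 200 changed by 1 on the log2 scale, this recovered 48.5% in the R6/2 design (1743 events, 7.62% of calls false), 77.5% for Q150 HOMO (1785 events, 3.12% false) and 73.5% for Q175 HOMO (1839 events, 1.34% false). A log2 ratio with a pseudocount understates changes of rare junctions. Sites were matched in GENCODE M21 and RefSeq on GRCm38. Alternatives were a minimum mean of 50 counts or none, a pseudocount of 2, no variance trend, mice centred on their median event, a quasi-binomial model, only the 2 groups compared, each mouse left out, and a block for the mouse number series. Mice were separate animals, so p-values measure the spread between mice.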

Additional observations from a re-analysis of the deposited data

Results flagged for a closer look

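Some single mice stood apart from the others of their group, by the ratio of their gap to the range of the group (Dixon's critical values for 4 or 5 mice). Of 152 groups of a member, 13 held such a mouse (8.55%), and chance gives about 1 in 20. Mdm4 accounted for 3 of them, at 23.6% in Q150 WT replicate 5 (others 16.8% to 18.4%), 28.7% in Q175 WT replicate 6 (others 17.5% to 20.4%) and 24.4% in Q175 HET replicate 1 (others 16.7% to 17.9%), with 172 to 230 counts each. Stat3 was at 49% in Q150 WT replicate 2 and 73.5% in Q175 WT replicate 8, on 100 and 113 counts. Q150 HOMO replicate 2 had 90.5% for Bmp1 (others 83.4% to 84.4%) and 0.566% for Mink1 (others 0.328% to 0.36%), and Q175 WT replicate 6 had 0.513% for Mink1 and 49.5% for Vegfb. Brd1 was at 45% in Q150 WT replicate 3, Taf1 at 40% in Q175 WT replicate 7 (others 30.4% to 32.3%), Pgs1 at 68.3% in Q150 HET replicate 2 and Scaf4 at 22.6% in Q175 HET replicate 1.

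The changes of 3 genes differed between models by a test of the difference itself (limma interaction, adjusted p under 0.05). Taf1 had a difference of -0.94 between R6/2 HD and Q150 HOMO, with changes of -0.54 and 0.40. Brd2 had differences of -0.99 between R6/2 HD and Q175 HOMO and -0.61 between Q150 HOMO and Q175 HOMO, and Pdlim5 one of 1.30 between R6/2 HD and Q175 HOMO. Line, age and repeat length cannot be told apart in these differences.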

How the results depend on the processing

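Of the 10 calls in comparisons with WT, 4 held in every alternative run: Brd2 in R6/2 HD and Q150 HOMO, and Ccnl2 and Pdlim5 in R6/2 HD. No called change reversed. Of 143 event comparisons without a call, 140 had none in any alternative. The exceptions were Brd2 in Q150 HET, Ogt in Q150 HOMO and Tial1 in R6/2 HD. Without the variance trend the calls numbered 3 in R6/2 HD, 1 in Q150 HOMO and 0 in Q175 HOMO. In Q150 HET the count was 1 (Brd2) with mice centred on their median event and 1 with a block for the mouse number series, and in Q175 HOMO that block gave 0. With a mouse left out the counts ran from 4 to 5 in R6/2 HD, 1 to 3 in Q150 HOMO and 1 to 2 in Q175 HOMO, and stayed at 0 in Q150 HET and Q175 HET. Equal counts need not hold the same events. Without R6/2 WT replicate 3, Kif1b and Taf1 lost their calls in R6/2 HD while Tial1 gained a call. For the slopes, where leaving out was added after seeing the data, they ran from 1 to 3 (Q150) and 0 to 2 (Q175), and for the differences between models from 1 to 2 (R6/2 HD and Q150 HOMO), 2 to 3 (R6/2 HD and Q175 HOMO) and 0 to 2 (Q150 HOMO and Q175 HOMO). The cause of these losses was not tested. No paired analysis was possible because no 2 mice of a set share a number in the labels, and the replicate numbers of the knock-in mice were given in accession order and pair nothing. How depth limits single junctions was not tested.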
